A study of Mus musculus with 2 samples.

Results

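The genes of the tumour necrosis factor (TNF) ligand superfamily and of its receptors were compared between 2 pools of sorted mouse cells. Members were taken by name: every non-control probe annotated as Tnf, Lta, Ltb, Ltbr, Fas, Fasl, Ngfr, Cd27, Cd70, Eda or Edar, or with a symbol beginning with Tnfsf or Tnfrsf, while Cd40 was left out. This gave 42 genes of the 27238 named genes on the array, 17 of them ligands and 25 receptors, read by 54 probes on 90 spots. The first pool, called the colon pool here, held CX3CR1high CD11b+ CD11c+ cells of the large intestinal lamina propria, the connective tissue beneath the gut epithelium. They came from CX3CR1gfp/+ mice, which carry green fluorescent protein in place of 1 allele of Cx3cr1. The second, the blood pool, was made of blood monocytes, sorted as Ly6c+ CD11b+, of C57BL/6J mice. The labels used here state no treatment, age or sex. The series' design text gives n as 10 for the colon cells and 6 for the monocytes without saying what was counted, so each pool is 1 sample here. Each of 2 two-colour arrays carried both pools, the colon pool in Cy5 and the blood pool in Cy3 on array 1 and the other way round on array 2. Tissue, strain and isolation differed along with the cell type, and their contributions cannot be told apart.

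TNF superfamily ligands are trimers, most of them made as membrane proteins that proteases can release. Their receptors carry cysteine-rich domains, and most are single-pass membrane proteins. Some receptors carry a death domain and can start caspase activation, others bind TRAF adaptors and activate the transcription factor NF-kappaB, and a few lack signalling domains and hold ligand away from the others. In the gut wall, Tnf from monocytes and macrophages is a main driver of inflammation, and antibodies against TNF are used to treat inflammatory bowel disease.

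Each value below is a log2 ratio, colon over blood, as a mean ± SD over the 2 arrays unless an array is named. The SD covers technical and dye error alone, and with 1 replicate no test was made. A gene was called higher or lower if it differed by 2-fold or more on each array in the same direction while its brighter pool stood well above background. A measured gene is one for which 1 of the pools passed that background flag on each array. Between 52.9% and 59.6% of spots were well above background in a given pool and array, no spot was saturated, and the ratios of the arrays correlated across the 37 measured members with r = 0.959. The sort labels were set beside marker genes. The marker lists were written with earlier results of these data known, so these counts are not an independent check. All 10 markers of Ly6C-high monocytes on the array were lower in the colon pool, and 9 of 14 intestinal macrophage markers were higher there and none lower, with Cx3cr1 itself at 0.10 ± 0.25. Markers of some other cells were also higher in the colon pool: 11 of 12 measured for fibroblasts and smooth muscle, 9 of 11 for B and plasma cells, 9 of 14 for T cells and 11 of 13 for epithelium. Endothelium had 5 of 12 higher and 1 lower, and mast cells and basophils 3 of 8 higher and none lower. Other lists went the other way. Neutrophil markers had 5 of 11 lower and none higher, platelet markers 4 of 9 lower and 1 higher, and conventional dendritic cell markers 3 of 9 lower and 1 higher. Of all measured genes, 14.2% were higher and 4.46% lower.

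Of the 42 members, 37 were measured, and 14 of these were higher in the colon pool, 1 was lower and 22 were neither. That is 40.5% of the measured members called, where 18.6% of all 15677 measured genes were called. In the higher direction the share was 37.8% of members and 14.2% of all genes, and in the lower direction 2.70% and 4.46%. The median ratio of the measured members was 0.59, and that of all measured genes was 0.06. The measured members are not all members. Of them 9 were above background in the colon pool alone, 3 of the calls are among those 9, and none was above background in the blood pool alone. Of all 15677 measured genes, 1803 were above background in the colon pool alone and 598 in the blood pool alone. Among the 28 members above background in both pools 11 were higher and 1 was lower, or 42.9%, where 17.9% of all genes above background in both were called (12.9% higher and 5.05% lower). At 4-fold or more on each array 7 members were higher, where 6.09% of all genes were. By role, 5 of 15 measured ligands were higher, 2 of 6 death-domain receptors were higher and 1 was lower, 6 of 12 TRAF-binding receptors were higher, and 1 of 4 soluble or decoy receptors was higher. In such pools, fewer cells of one kind and less RNA per cell cannot be told apart.

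**Figure D1:**
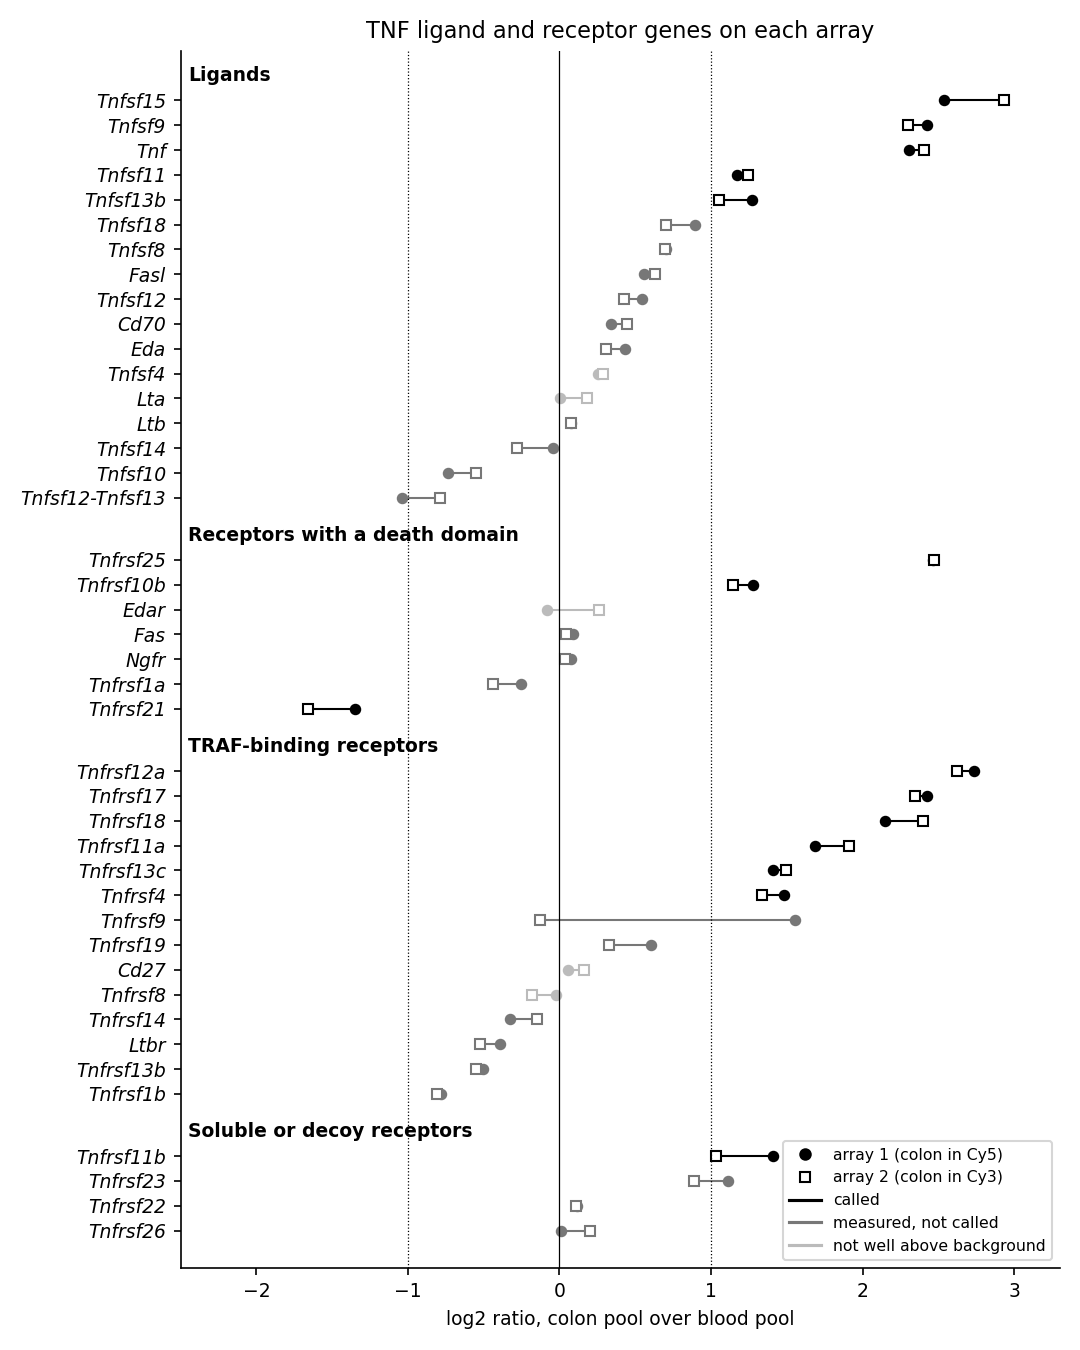
Log2 ratio (colon over blood) for each of the 42 genes, grouped by role and ordered by ratio, with array 1 as filled circles and array 2 as open squares. Dotted lines mark 2-fold. Calls are drawn in black, measured genes without a call in dark grey and genes not well above background in light grey. By the rule for a call, the 14 higher calls lie right of the 2-fold line on both arrays. Tnfrsf21 is the 1 lower call, and only Tnfrsf9 has arrays more than 1 unit apart.

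Among the ligands, Tnf, Tnfsf9 and Tnfsf15 were more than 4-fold higher in the colon pool on each array, and Tnfsf11 and Tnfsf13b more than 2-fold. Tnf encodes the founding cytokine of the family. Its probe (chr17:35336795-35336854, build mm9, minus strand) was printed on 10 spots of each array, and its first 30 bases are shown because it is the called gene among the 4 members with 10 spots a probe.
Tnf probe: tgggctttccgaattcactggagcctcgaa
The background-corrected, normalized log2 signal of Tnf was 12.98 on array 1 and 13.09 on array 2 in the colon pool, against 10.67 and 10.68 in the blood pool. On array 1 the 10 spots gave ratios between 2.25 and 2.35, with a median of 2.30, and on array 2 between 2.35 and 2.46, with a median of 2.41. The spots of each array thus spread less (SD 0.03 and 0.04) than the arrays differed, and every spot on both arrays was more than 4-fold higher in the colon pool. The mean ratio was 2.36 ± 0.07, or 5.12-fold.

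Tnfsf15, the ligand of the death-domain receptor encoded by Tnfrsf25 and a gene linked to inflammatory bowel disease in humans, had the highest ratio of any member under the scaling used here. Its log2 signal was 9.08 and 8.90 in the colon pool on arrays 1 and 2, against 6.54 and 5.97 in the blood pool. The ratio was 2.73 ± 0.28, or 6.65-fold. The raw brightness in the blood pool was 66.1 and 74.1, over a local background of 40 and 48.5. Tnfsf9, whose product stimulates T cells through Tnfrsf9, had signals of 11.88 and 11.80 in the colon pool, against 9.46 and 9.50 in the blood pool. The ratio was 2.36 ± 0.09, or 5.14-fold.

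Tnfsf13b encodes the B cell survival factor BAFF. Its signals were 9.273 and 9.169 in the colon pool, against 8.005 and 8.119 in the blood pool, a ratio of 1.16 ± 0.15 (2.23-fold). Tnfsf11 encodes RANKL, which drives osteoclast formation and, in the gut, the differentiation of M cells. It had signals of 7.41 and 7.01 in the colon pool, while the blood pool, at 6.24 and 5.76, was not well above background on either array. Its ratio was 1.21 ± 0.05 and the colon pool was at least 2.31-fold higher. Bounds of this kind set the bright pool's mean signal against the higher, on each array, of the dim probe's own signal and the lowest signal of any probe well above background.

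The other 10 measured ligands were not called. Tnfsf18 (0.80 ± 0.13), which binds Tnfrsf18, Tnfsf8 (0.70 ± 0.00), which binds Tnfrsf8, the death ligand gene Fasl (0.59 ± 0.05), Cd70 (0.39 ± 0.07), which binds Cd27, and the ectodysplasin gene Eda (0.37 ± 0.09) were well above background in the colon pool alone. Their bounds were at least 1.72-fold, 1.62-fold, 1.51-fold, 1.31-fold and 1.29-fold. In each of these the blood pool was not well above background on either array, so the fold is a lower bound. The other probe of Eda was not measured and gave -0.09, so its bound rests on 1 of 2 probes. Tnfsf12, which encodes TWEAK, had a ratio of 0.48 ± 0.08 by its brighter probe and 0.16 by its other. Ltb, a subunit of the membrane lymphotoxin that guides lymphoid organ formation, had signals of 10.40 and 10.39 in the colon pool, against 10.33 and 10.31 in the blood pool. Its ratio of 0.07 ± 0.00 was near the median of all genes. Tnfsf14, whose product binds Ltbr and Tnfrsf14, was at -0.16 ± 0.17. Tnfsf10, which encodes the death ligand TRAIL, was at -0.64 ± 0.13. The read-through gene Tnfsf12-Tnfsf13 was at -0.91 ± 0.17 by its brighter probe and -0.50 by its other, and Tnfsf13 alone had no probe under that name. Both read-through probes lie downstream of those of Tnfsf12, and whether they also read Tnfsf13 was not tested. Lta, the soluble lymphotoxin gene, and Tnfsf4 were not measured. On the 10 spots of the Lta probe on array 1 the ratios ran from -0.06 to 0.25, with 5 spots well above background in the colon pool and 3 in the blood pool.

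Of the death-domain receptors, Tnfrsf25 and Tnfrsf10b were higher in the colon pool and Tnfrsf21 was lower. Tnfrsf25, the receptor for Tnfsf15 and best known on T cells, had signals of 9.09 and 8.87 in the colon pool, against 6.63 and 6.40 in the blood pool. The arrays gave the same ratio to 2 decimals, 2.47 ± 0.00 or 5.53-fold. Tnfrsf10b, the mouse death receptor for TRAIL, had signals of 7.71 and 7.42 in the colon pool, against 6.43 and 6.27 in the blood pool, a ratio of 1.21 ± 0.09 (2.32-fold). TRAIL's own gene, Tnfsf10, had a ratio below 0 on both arrays. Tnfrsf21, a death-domain receptor known from neurons and T cells in mice, was the single member lower in the colon pool. It had signals of 8.93 and 8.86 in the colon pool, against 10.28 and 10.52 in the blood pool, a ratio of -1.51 ± 0.22, or 2.84-fold lower.

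Tnfrsf1a, the broadly expressed TNF receptor with a death domain, had signals of 13.10 and 13.02 in the colon pool, against 13.36 and 13.45 in the blood pool. Its probe, also on 10 spots, gave ratios between -0.32 and -0.22 on array 1 and between -0.49 and -0.41 on array 2. The mean of -0.35 ± 0.13 and the -0.39 of its other probe were below 0 and short of 2-fold under loess. Under median centring its brighter probe was at 0.07 on array 1 and -2.30 on array 2, without a call. Fas, the receptor for the Fas ligand, was at 0.07 ± 0.03 with signals of 10.45 and 10.34 in the colon pool, against 10.36 and 10.30 in the blood pool. Ngfr, the low-affinity neurotrophin receptor gene, was at 0.05 ± 0.03, and its 10 spots spread across 0 on both arrays. Edar, the ectodysplasin receptor gene, was not well above background in either pool.

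Among the TRAF-binding receptors 6 of 12 measured were higher in the colon pool and none was lower. Tnfrsf12a had the highest ratio of these under the scaling used here. It is the TWEAK receptor gene, which responds to injury and growth factors in many tissues. Its signals were 11.764 and 12.003 in the colon pool, against 9.028 and 9.382 in the blood pool, a ratio of 2.68 ± 0.08 (6.40-fold). Tnfrsf11a, which encodes RANK, the receptor on osteoclast precursors of the monocyte lineage, had signals of 11.42 and 11.53 in the colon pool, against 9.73 and 9.62 in the blood pool. The ratio was 1.80 ± 0.16 (3.48-fold).

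The other 4 receptors called in this group are best known on lymphocytes. Tnfrsf17, which encodes the plasma cell receptor BCMA, had signals of 8.59 and 8.23 in the colon pool, while the blood pool, at 6.16 and 5.89, was not well above background on either array. Its ratio was 2.38 ± 0.06 and the colon pool was at least 5.22-fold higher. Tnfrsf18, a costimulatory receptor gene highly expressed in regulatory T cells, had signals of 9.67 and 9.70 in the colon pool, against 7.52 and 7.30 in the blood pool, a ratio of 2.27 ± 0.18 (4.83-fold). Tnfrsf4, the receptor for Tnfsf4 and a marker of activated T cells, had signals of 9.72 and 9.60 in the colon pool, against 8.24 and 8.26 in the blood pool. Its ratio was 1.41 ± 0.10 (2.65-fold).

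Tnfrsf13c encodes the BAFF receptor of B cells. Its signals were 7.98 and 7.73 in the colon pool, against 6.57 and 6.24 in the blood pool, a ratio of 1.45 ± 0.06 (2.73-fold). Its other probe, 2413 bases upstream, was not measured and gave -0.06, so the call rests on 1 of 2 probes. A 30-base stretch of each probe is shown because the call depends on which of them is read. Capitals mark the longest run shared with a probe of another gene, which was 15 bases in both.
Tnfrsf13c brighter probe, chr15:82052203-82052262 (mm9, minus strand), bases 18 to 47: TTCTTTGAGCTGGGAaaggtactgttaaac
Tnfrsf13c other probe, chr15:82054616-82054675 (mm9, minus strand), bases 31 to 60: gaaactgcGTGTCCTGTGAGCTCttccaca

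Many lymphocyte markers were also higher in the colon pool. Sums of raw brightness given here are not corrected for background or dye, and the pools carry different dyes on each array. The summed raw brightness of the 16 T cell markers was 15187 on array 1 and 6151 on array 2 in the colon pool, against 2609 and 4125 in the blood pool. Of these, 9 were higher and none lower, led by Il7r (4.10 ± 0.18), Cd28 (3.09 ± 0.22) and Thy1 (2.87 ± 0.05). The 5 measured without a call were Cd3g (0.79), Lat (0.70), Cd3e (0.58), Foxp3 (0.48) and Cd247 (-0.06), while Cd8a and Cd8b1 were not measured. The 13 B and plasma cell markers summed to 44978 and 17770 in the colon pool, against 2285 and 4840 in the blood pool. Jchain dominates these sums: its colon log2 signals were 14.82 and 14.87, where those of Cd79b, the next brightest, were 11.30 and 11.45. The highest ratios were those of Jchain (5.18 ± 0.22), Mzb1 (3.65 ± 0.18) and Pou2af1 (2.85 ± 0.17), and Pax5 and Blk were not measured. Among markers of NK and innate lymphoid cells 4 of 9 measured were higher. The part of such cells in the ratios of Tnfrsf17, Tnfrsf13c, Tnfrsf18, Tnfrsf4 and Tnfrsf25 was not tested.

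The TRAF-binding receptors without a call included Tnfrsf1b, the second TNF receptor gene. It had signals of 10.91 and 10.93 in the colon pool, against 11.70 and 11.74 in the blood pool. Its ratio was -0.79 ± 0.02 on closely matching arrays, a 1.73-fold difference that is short of the threshold. Ltbr, the lymphotoxin beta receptor gene, was at -0.46 ± 0.10. Tnfrsf13b, whose product binds BAFF on B cells, was at -0.53 ± 0.03, and its other probe, which was not measured, at -0.01. Tnfrsf14, the receptor for Tnfsf14, was at -0.24 ± 0.13, with -0.05 for its other probe. Tnfrsf19 was above background in the colon pool alone, at 0.46 ± 0.19 and at least 1.32-fold higher, with -0.05 for an unmeasured other probe. Cd27 and Tnfrsf8, both lymphocyte receptor genes, were not measured.

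Tnfrsf9, the receptor for Tnfsf9 and a costimulator of T cells, was the member whose arrays disagreed most. By its brighter probe the ratio was 1.55 on array 1 and -0.13 on array 2, a mean of 0.71 ± 1.19, where the next largest SD of any member was 0.28. Raw brightness in the colon pool was 30927 in Cy5 and 6935 in Cy3, against 37006 in Cy5 and 6953 in Cy3 in the blood pool. Each pool was thus several times brighter in Cy5 than in Cy3 and within a dye the pools differed far less than the dyes did. Its last 30 bases end in a run of alternating bases, shown with the start of the other probe, which has none. Capitals in the brighter probe mark the 26 bases it shares, on the opposite strand, with a probe of Slc17a5.
Tnfrsf9 brighter probe, chr4:150319582-150319641 (mm9, plus strand), bases 31 to 60: taaaATCAGTGTGTGTGTGTGTGTGTGTGT
Tnfrsf9 other probe, chr4:150319101-150319160 (mm9, plus strand), bases 1 to 30: cgcgcacctcatccaagtctcttctaacgc
The other probe gave 1.19 on array 1 and 0.998 on array 2, a mean of 1.09 ± 0.14 that missed the 2-fold rule on array 2, with the blood pool not well above background. Probes with 16 or more alternating bases of this kind numbered 106 on the array, and 105 were measured. Their median SD over the arrays was 1.20, where that of the 22096 other measured probes was 0.10. Their median ratio was 1.55 on array 1 and -0.22 on array 2. Among probes with a mean log2 signal of 12 or more the median SD was 1.42 for the 71 with such a run and 0.12 for the 2806 without, but brightness was not matched beyond that floor, since the median log2 signals were 15.7 and 13.4. No other member probe holds such a run.

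**Figure D2:**
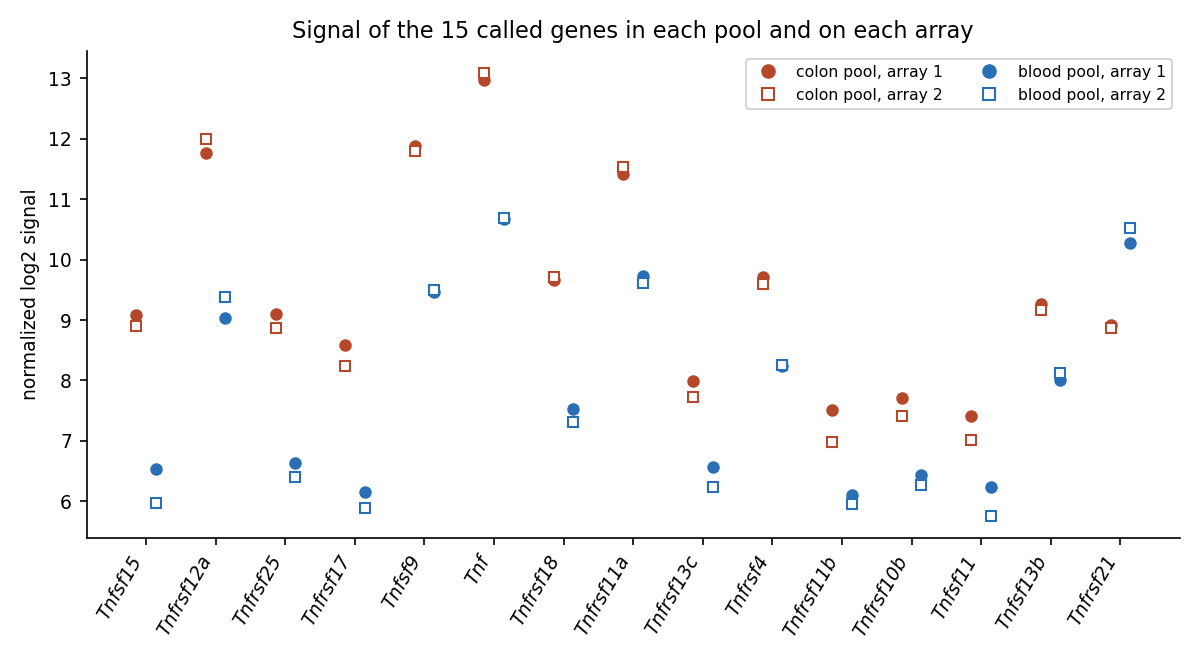
Normalized log2 signal of the 15 called genes, with the colon pool in red on the left and the blood pool in blue on the right of each gene, array 1 as filled circles and array 2 as open squares. The genes were chosen by the call, so the distance between the pools on each array follows from that rule. The colon pool is higher in 14 genes and lower in Tnfrsf21. Signals of different genes come from different probes and are not comparable.

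Of the soluble and decoy receptors, Tnfrsf11b was called. It encodes osteoprotegerin, a secreted receptor that binds RANKL and is made by stromal cells. Its signals were 7.51 and 6.98 in the colon pool, while the blood pool, at 6.10 and 5.95, was not well above background on either array. The ratio was 1.22 ± 0.27 and the colon pool was at least 2.31-fold higher. The 12 fibroblast and smooth muscle markers summed to a raw brightness of 151403 and 62923 in the colon pool, against 1957 and 4043 in the blood pool. These sums were again not corrected for background or dye. Of the 12 markers 11 were higher, led by Dcn (7.01 ± 0.08), Lum (6.82 ± 0.14) and Col1a1 (6.79 ± 0.04). Their part in the Tnfrsf11b ratio was not tested. Tnfrsf23, a mouse decoy receptor gene for TRAIL, was at 1.11 on array 1 and 0.89 on array 2, just short of the rule, with a mean of 0.999 ± 0.161 and 0.09 by its other probe. Its neighbours Tnfrsf22 (0.11 ± 0.01, and 0.17 by its other probe) and Tnfrsf26 (0.10 ± 0.13) were near the median of all genes.

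The threshold fell among values close together. Just inside it by the weaker of the arrays were Tnfrsf11b (1.03), Tnfsf13b (1.05), Tnfrsf10b (1.15) and Tnfsf11 (1.17). Just outside it were Tnfrsf23 (0.89), Tnfsf12-Tnfsf13 (-0.79), Tnfrsf1b (-0.78) and Tnfsf18 (0.70).

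Ligands were then set beside their receptors. A list of 24 known ligand and receptor pairs held 22 with both genes on the array and 16 with both measured. In 5 pairs both genes were higher in the colon pool: Tnfsf15 with Tnfrsf25, Tnfsf11 with its receptor gene Tnfrsf11a, Tnfsf11 with its soluble receptor gene Tnfrsf11b, and Tnfsf13b with each of Tnfrsf13c and Tnfrsf17. In 4 pairs the ligand alone was called higher: Tnf with Tnfrsf1a, Tnf with Tnfrsf1b, Tnfsf9 with Tnfrsf9, and Tnfsf13b with Tnfrsf13b. Here Tnfrsf9 is counted by its brighter probe, whose arrays disagreed. The other Tnfrsf9 probe, at 1.19 and 0.998, missed the rule on array 2. Tnf was at 2.36, and both of its receptor genes lay below 0 on both arrays under loess. In 3 pairs the receptor alone was called higher: Tnfrsf12a with its ligand gene Tnfsf12, Tnfrsf18 with Tnfsf18, and Tnfrsf10b with Tnfsf10. Neither gene was called in the other 4. Pairs share genes and are not independent of each other.

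**Figure D3:**
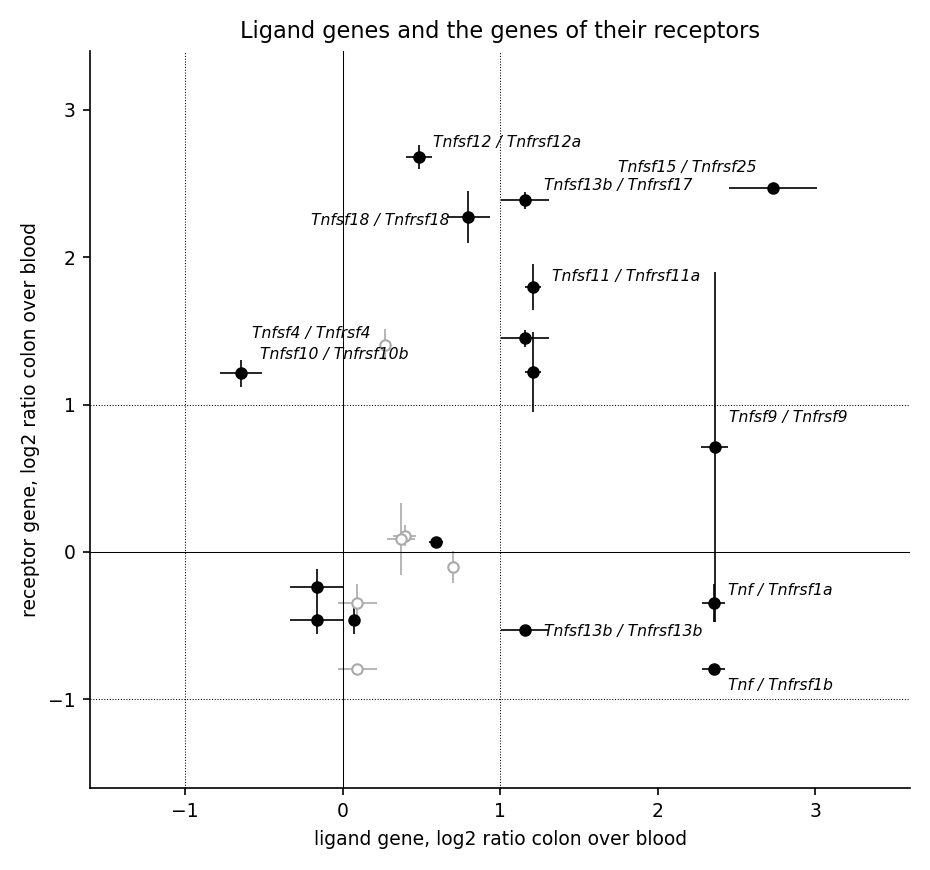
Mean log2 ratio (colon over blood) for the ligand gene (horizontal) and receptor gene (vertical) of each pair on the array, with bars of 1 SD over the arrays. Filled points have both genes measured, open grey points do not. Dotted lines mark 2-fold. The pairs of Tnf with Tnfrsf1a and Tnfrsf1b lie at the lower right and that of Tnfsf15 with Tnfrsf25 at the upper right. Tnfrsf9 is drawn by its brighter probe, whose arrays disagreed.

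Several members lie side by side in the genome. On build mm9, 20 members formed 8 clusters in which neighbouring probes lay within 100 kb. In the lymphotoxin cluster on chromosome 17, Ltb (35333097 to 35333156) was at 0.07, Tnf (35336795 to 35336854) at 2.36 and Lta (35340275 to 35340334) at 0.09 without being measured. The probes of Ltb and Tnf are 3698 bases apart, and of the 3 genes Tnf alone was called. Farther along that chromosome Tnfsf9 was at 2.36, with Cd70 at 0.39 and Tnfsf14 at -0.16 beside it. On chromosome 4, by contrast, Tnfrsf4 (1.41) and Tnfrsf18 (2.27), 12302 bases apart, were both higher. The other 5 clusters held no called gene.

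The sequences before the start sites of Tnf and Ltb, neighbours with different ratios, and of Tnfsf15 and Tnfrsf25, a ligand and receptor that were both higher, are shown as 250 bases each from RefSeq on build GRCm38.p6. Capitals mark matches to an NF-kappaB-like motif or to the AP-1 motif TGACTCA, searched on both strands. The NF-kappaB-like motif was, in order, 3 G, 2 bases of any kind, 3 T and 2 C.
Tnf, chr17:35202008-35202257, minus strand: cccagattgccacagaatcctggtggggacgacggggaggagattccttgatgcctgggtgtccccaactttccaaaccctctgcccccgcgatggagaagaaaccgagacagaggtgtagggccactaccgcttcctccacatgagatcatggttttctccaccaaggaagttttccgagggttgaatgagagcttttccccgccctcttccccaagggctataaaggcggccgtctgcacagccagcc
Ltb, chr17:35194257-35194506, plus strand: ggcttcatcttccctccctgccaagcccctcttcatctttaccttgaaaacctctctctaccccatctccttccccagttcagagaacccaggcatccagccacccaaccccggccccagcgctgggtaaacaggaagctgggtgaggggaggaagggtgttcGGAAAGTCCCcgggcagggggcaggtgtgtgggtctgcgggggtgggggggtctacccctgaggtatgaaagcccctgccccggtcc
Tnfsf15, chr4:63745060-63745309, minus strand: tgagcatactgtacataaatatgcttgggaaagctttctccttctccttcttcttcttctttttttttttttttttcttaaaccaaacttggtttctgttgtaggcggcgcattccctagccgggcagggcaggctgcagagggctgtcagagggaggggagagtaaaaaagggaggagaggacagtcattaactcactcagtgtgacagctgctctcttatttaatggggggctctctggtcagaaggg
Tnfrsf25, chr4:152115684-152115933, plus strand: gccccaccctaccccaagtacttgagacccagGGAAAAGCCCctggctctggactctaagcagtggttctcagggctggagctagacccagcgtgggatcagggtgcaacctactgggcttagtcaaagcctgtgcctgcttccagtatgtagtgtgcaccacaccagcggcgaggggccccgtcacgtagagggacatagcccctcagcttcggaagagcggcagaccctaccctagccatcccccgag
Tnfrsf25 has a second promoter in the table (chr4:152116093-152116342), which holds neither motif. Promoters were found for 34 of the 42 members, and windows ran from 250 bases before to 50 after the start. The NF-kappaB-like motif was in those of 3 members (8.82%), where 1.89% of 27025 genes had it. They were Ltb, at position -87, Tnfrsf25, at position -218, and Tnfrsf9, at position -43. Of the called members with a promoter 1 of 12 held it, and of those measured without a call 2 of 18. A looser form, with any 5 bases between 3 G and 2 C, includes every match of the first and was in 23 of 34 members (67.6%) and in 53.5% of all genes. TGACTCA was in 5 members (14.7%: Fas, Tnfrsf8, Tnfrsf9, Tnfsf13b and Tnfsf14) and in 5.95% of all genes. A match describes letters in this window and was not tested against binding.

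Genes that act with the ligands and receptors were counted in lists written with earlier results of these data known. The death branch list includes Tnfrsf10b, Fas and Tnfrsf1a, which are also members. Of 30 measured adaptors and kinases, 5 (16.7%) were higher and 2 (6.67%) lower in the colon pool, with a median of -0.11. These shares are near the 14.2% and 4.46% of all measured genes. Traf1, an adaptor gene induced by NF-kappaB, stood at 4.98 ± 0.17, Tank, a TRAF-binding protein gene, at 2.45 ± 0.17, Traf4 at 2.38 ± 0.04 and Traf3, whose product restrains non-canonical signalling, at 1.51 ± 0.14. The kinase gene Ikbkb (-1.55 ± 0.06) and Daxx (-1.73 ± 0.05), whose product can bind Fas, were lower. Of 18 genes of the death branch, 2 (11.1%) were higher and 3 (16.7%) lower (median -0.41). The higher ones were Tnfrsf10b and Cflar (2.46 ± 0.16), whose product blocks caspase activation at the receptor, and the lower ones were Casp9 (-1.21 ± 0.11), the caspase inhibitor gene Xiap (-1.25 ± 0.20) and Bid (-1.42 ± 0.16). Not all of these act towards death, so the counts give no direction for the branch. Under median centring 3 of the 18 genes were called, where 10.8% of all measured genes were.

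Of 22 NF-kappaB subunits and TNF-induced feedback genes, 14 (63.6%) were higher, where 14.2% of all genes were, and none was lower (median 1.35). They included Tnfaip6 (4.15 ± 0.27), which encodes a secreted matrix-binding protein, Tnip3 (2.72 ± 0.06) and Tnip1 (2.04 ± 0.02), whose products bind the feedback enzyme of Tnfaip3, and the subunit gene Relb (2.18 ± 0.16). Of 10 measured genes of ligand and receptor shedding, 3 (30%) were higher and none lower, with a median of 0.79, where 14.2% and 4.46% of all genes were. The higher ones were Timp3 (4.60 ± 0.20), which encodes an inhibitor of the protease that releases TNF, Rhbdf1 (3.23 ± 0.07), which encodes a partner of that protease, and the lysosomal protease gene Ctsd (1.80 ± 0.35). Of 12 genes that control Tnf messenger RNA, 2 (16.7%) were higher and 2 (16.7%) lower (median 0.13), where 14.2% and 4.46% of all genes were. Zfp36l1 (2.49 ± 0.17), which encodes a protein that binds AU-rich messenger RNA, and Zc3h12a (1.33 ± 0.13), which encodes an RNase, were higher, and Mapk14 (-1.04 ± 0.01), the gene of the p38 kinase, and Zfp36l2 (-2.40 ± 0.27), a relative of Zfp36l1, were lower. Under median centring 2 of the 22 NF-kappaB and feedback genes and 1 of the 12 messenger RNA control genes were called. Of all measured genes 10.8% were called under that scaling. The part of the cells whose markers are given above in these lists was not tested.

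The scaling of the arrays moved these values. With each array centred on its median in place of the intensity-dependent loess curve, 7 of the 14 higher calls were lost. These were the calls of Tnf, Tnfsf9, Tnfsf13b, Tnfrsf12a, Tnfrsf11a, Tnfrsf4 and Tnfrsf10b. Over all measured genes, higher calls fell from 2224 to 1138. Tnf was then at 2.59 on array 1 and 0.67 on array 2, a mean of 1.63, where all measured genes had medians of 0.33 and -0.96 on those arrays. Most of the others missed the rule on array 2 with means still above 1: Tnfsf9 was at 1.69, Tnfrsf12a at 1.998 with 0.9995 on array 2, Tnfrsf11a at 1.13 and Tnfrsf10b at 1.16, while Tnfrsf4 was at 0.88 and Tnfsf13b at 0.67. Relative to the median of all genes Tnfrsf10b was at 1.44 under this scaling and at 1.15 under loess, and Tnf was at 1.91 and at 2.29. Without a call in either, Ltb (-0.59), Fas (-0.59), Tnfrsf9 (-0.09), Tnfsf12 (-0.03) and Tnfrsf26 (-0.01) were below 0 under median centring and above it under loess. The median SD of all measured genes over the arrays was 1.06 with median centring and 0.10 with loess. Under the scanner software's own ratios, without the offset that compresses dim signals, 20 members were higher and 3 lower, or 62.2% called. Calls also rose over all measured genes, from 18.6% under loess to 33.5%. Members dim in blood had larger ratios under the software, such as Tnfrsf17 at 5.57, Tnfsf11 at 4.61 and Tnfrsf11b at 4.37.

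**Figure D4:**
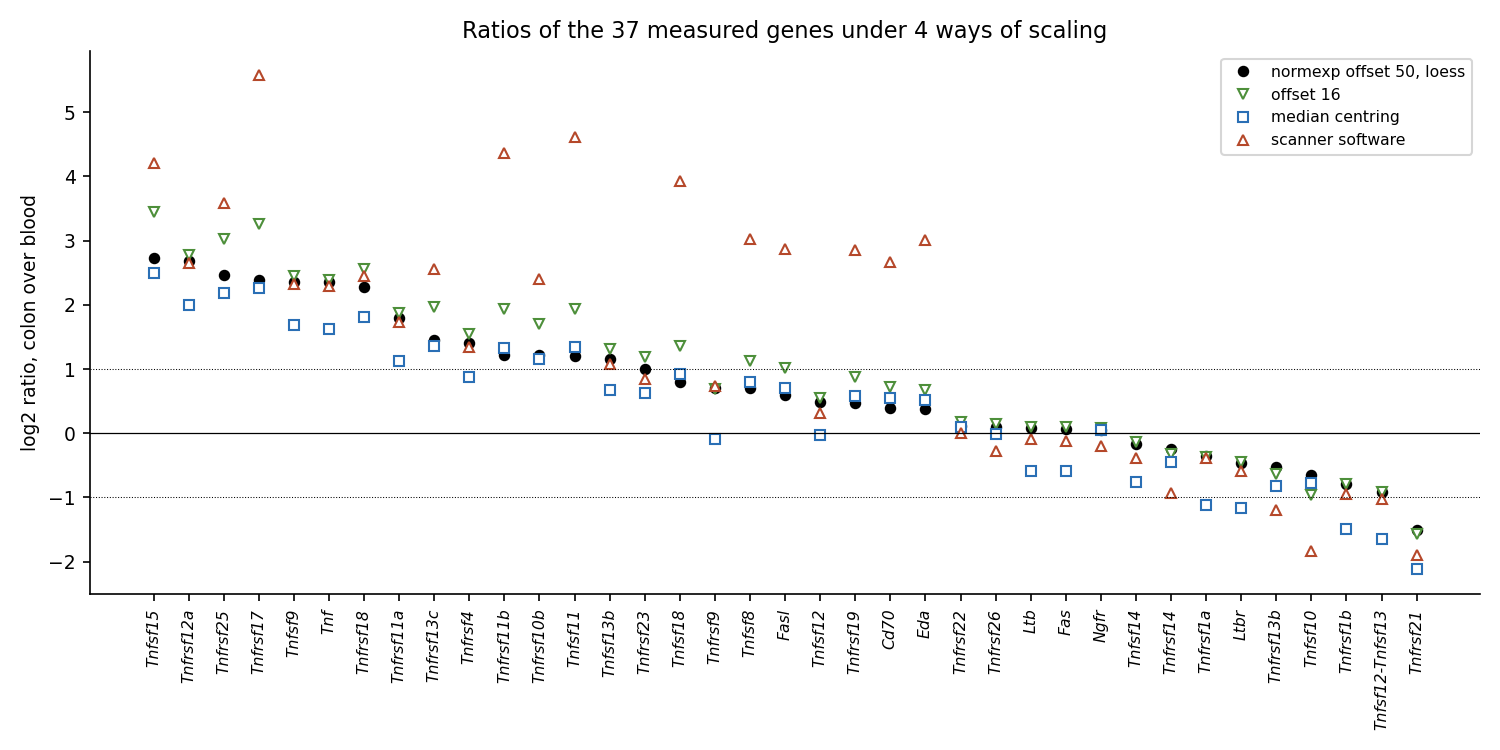
Mean log2 ratio (colon over blood) for the 37 measured genes, ordered by the ratio used here, under loess with an offset of 50 (black circles), an offset of 16 (green triangles), median centring (blue squares) and the scanner software (red triangles). Dotted lines mark 2-fold. The scalings part most for genes dim in the blood pool, such as Tnfrsf17 and Tnfsf11, and Tnfrsf21 is below -1 under all 4.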

How the data were processed

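The authors labelled 25 ng of total RNA of each pool after oligo-dT amplification and hybridised it to Agilent arrays with probes of 60 bases, per the labels' protocols. The design is 026655, per the file headers. With 1 slide and 1 scan for both arrays, no batch could be tested. They name the same pools and were counted as 1 replicate, although whether the same extracts were used is not stated. The deposited scanner files hold linear intensity values of spots and local background, and a log10 ratio, red over green, that the software had dye-normalized, per the file headers. The deposited value table equals that log10 ratio turned to colon over blood. Agilent Feature Extraction is named as version 10.7.3.1 (file headers) or 10.5.1.1 (submitters' processing notes).

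Intensities were corrected by normexp (offset 50) and normalized by loess with limma 3.58.1 in R 4.3.3, array 2 was turned, and spots of a probe were averaged. Of several probes the brightest gave a gene's value. The offset compresses the ratios of dim probes. The method was run on simulated data with known ratios set on bright spots alone and no dye bias. Ratios of dim probes and the removal of dye bias were therefore not tested.

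The members and gene lists were chosen with earlier results of these data known. Every measured member is named, with pool values for called members and for Tnf, Tnfrsf1a and Tnfrsf1b, up to 4 called genes per direction of each pathway list, and up to 3 of each marker list discussed. Alternatives were other background corrections, the deposited table, the software's ratios, median centring, the mean over probes, each array alone, other filters and thresholds and, chosen after seeing the data, probes without repeats. Probe positions are on mm9, as in the files. The number of per-sample columns left unused was 0.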

Additional observations from a re-analysis of the deposited data

How the results depend on the processing

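No member changed sign with a call under any alternative run, and 4 of the 15 calls held in all 11 alternatives with values for single members: Tnfsf15, Tnfrsf25, Tnfrsf18 and Tnfrsf21. Tnfsf11, Tnfrsf17 and Tnfrsf11b held in 10 and have no value where both pools must be above background. Against 14 higher and 1 lower, members numbered 7 higher under median centring and 7 at a 4-fold threshold. The lower count was 3 with the software's ratios or the deposited table, 3 at 1.5-fold and 0 at 4-fold, and 1 to 2 with either array left out. The member median, 0.59, was 0.71 without background correction, 0.88 with an offset of 16, 1.34 with the software's ratios or the deposited table, 0.43 without a filter on dim probes, 0.30 with both pools above background, and 0.45 to 0.60 with either array left out. Over all genes, 2224 higher calls became 1138 under median centring, 3493 at 1.5-fold and 954 at 4-fold, and 699 lower calls became 2081 with the software's ratios or the deposited table, 1725 at 1.5-fold and 130 at 4-fold. Higher calls were 76.1% of all calls, 67.1% under median centring and 60.4% with the software's ratios, and the median of all genes was 0.06, -0.28 and -0.12. Under median centring calls fell to 3 of 5 in the death branch, 1 of 4 in Tnf messenger RNA control and 2 of 14 among NF-kappaB and feedback genes. The share of all measured genes called fell from 18.6% to 10.8%. At 1.5-fold, 14 adaptors and kinases, 9 death branch genes and 5 shedding genes were called, where 33.3% of all measured genes were. At 4-fold, 3 adaptors and kinases, 1 death branch gene, 2 messenger RNA control genes and 4 NF-kappaB genes were called, where 6.91% of all measured genes were. The shedding list had 3 to 5 calls with either array left out, where 20.7% to 22.3% of all measured genes were called. Beside the calls lost under median centring, Tnfrsf13c was at 0.70 and lost its call with the mean over probes. Without repeat probes, chosen after seeing the data, Tnfrsf9 was at 1.09 and the member counts stayed 14 and 1. The causes were not tested. No paired analysis was possible because both arrays hold the same pools. The slide was not run as a block, since both arrays lie on 1 slide.

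With 1 pool a side the SDs hold no difference between animals. Median raw brightness of spots was 64.2 to 96.6 over a background of 40.5 to 43, so ratios of dim members depend on the offset, and 9 members dim in blood have only a bound there. Of the 54 member probes, 16 share 15 or more bases with a probe of another gene.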
